A study of Mus musculus with 53 samples.

Results

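MicroRNA processing and silencing genes were examined in the cortex of mouse embryos. The 10 genes were chosen by name, under a rule that uses no level, as the Microprocessor genes Drosha and Dgcr8, the export gene Xpo5, Dicer1 and its partner Tarbp2, the Argonaute genes Ago1, Ago2, Ago3 and Ago4, and the GW182 gene Tnrc6a. All 10 were found among the 37991 gene IDs with a value. The series holds 53 libraries in 19 groups, made from mouse neurons, astrocytes and brain tissue to study histone turnover in neuronal activity and plasticity. The group used here is untreated cortical tissue of C57bl/6 embryos (E16.5), 3 libraries that the authors gave as 1 mean per gene. The remaining 18 groups, with 50 libraries, were not used here, and no condition is compared with another. A single mean has no SD, so no test was run and no p-value is given.

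MicroRNAs are short RNAs cut from hairpins in longer transcripts. In the nucleus the RNase III enzyme DROSHA and its RNA-binding partner DGCR8, together the Microprocessor, cut the hairpin out of the primary transcript, and exportin 5 carries it to the cytoplasm. There DICER, helped by TARBP2, trims it to a duplex, an Argonaute keeps one strand as a guide, and GW182 proteins bound to the Argonaute recruit deadenylases and decapping factors to the paired mRNA. In the developing cortex this route makes the microRNAs that accompany the change from progenitor to neuron. The same enzymes process microRNA-based knockdown constructs such as those used elsewhere in the series.

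The deposited unit is RPKM, reads per kilobase of gene divided by the library's total in M reads. Low values were used to find which length was taken, the whole-gene span with introns or the exon length. With the span, 664 of 783 low values of multi-exon genes (84.8%) fell within 0.5% of what 1 read in 1 library would give. With the exon length, 41 of 1019 (4.02%) did so. The library depths behind both shares, 51.3, 64.8 and 71.6 M reads, came from the span-based values themselves. No depths were sought with the exon length, so the 2 shares are not a like comparison. Most span-based values did fall on only 3 depths, and the span is taken as the deposited length from here on. Since genes with long introns get low values on that scale, each level is also given per kilobase of exon (all exons of the gene merged), which takes all counted reads to lie in exons. All 8 cortical marker genes reached 1 RPKM, from Neurod6 at 194 and Tbr1 at 24.4 down to Pax6 at 1.57 RPKM. Of 12 markers of other cells or regions 3 did so, the globin genes Hba-a1 (53.6) and Hbb-bs (52.6) and the endothelial gene Cldn5 (17.3). Another endothelial gene, Pecam1, stood at 0.133 RPKM and at 2.05 per kilobase of exon. The lowest detected of the 12 was the hindbrain gene En2 at 0.009999 RPKM, and Hoxb4 was listed at 0. Per kilobase of exon all 8 cortical genes and 7 of the 12 others reached 1. The background over protein-coding genes was 31.6% as deposited and 54.0% per kilobase of exon.

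Transcripts of every step from hairpin cutting to silencing were measured. Of the 10 genes 9 stood at 1 RPKM or more as deposited, all but Ago3, against a background of 18.8% of all gene IDs and 31.6% of protein-coding genes. By exon length all 10 stood at 1 or more, against 54.0% of protein-coding genes. Their median was 1.90 RPKM, against 0.213 RPKM over all protein-coding genes. The same medians by exon length were 10.1 and 1.57. The tissue was sequenced in bulk, so fewer cells with a transcript and less of it per cell cannot be told apart.

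As deposited, Tarbp2 and Ago1 stood apart from the others at 9.42 and 8.70 RPKM. The remaining 8 genes lay between 0.569 and 2.12 RPKM. Per kilobase of exon, on the spans used, Ago1 (35.97) and Drosha (26.1) led, and the others lay between 3.36 and 11.4. With spans from another annotation, RefSeq, Tnrc6a would stand at 24.4 and Tarbp2 at 15.7 per kilobase of exon. Places on that scale thus rest on the spans. Ago1 was thus among the highest 2 genes and Ago3 the lowest on both scales, while Drosha, with 110.5 kb of gene for 5.94 kb of exon, stood at place 7 as deposited and at place 2 per kilobase of exon. Tarbp2 moved the other way, standing at place 1 as deposited and at place 3 per kilobase of exon, and of its 5.49 kb of gene 4.55 kb are exon.

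**Figure D1:**
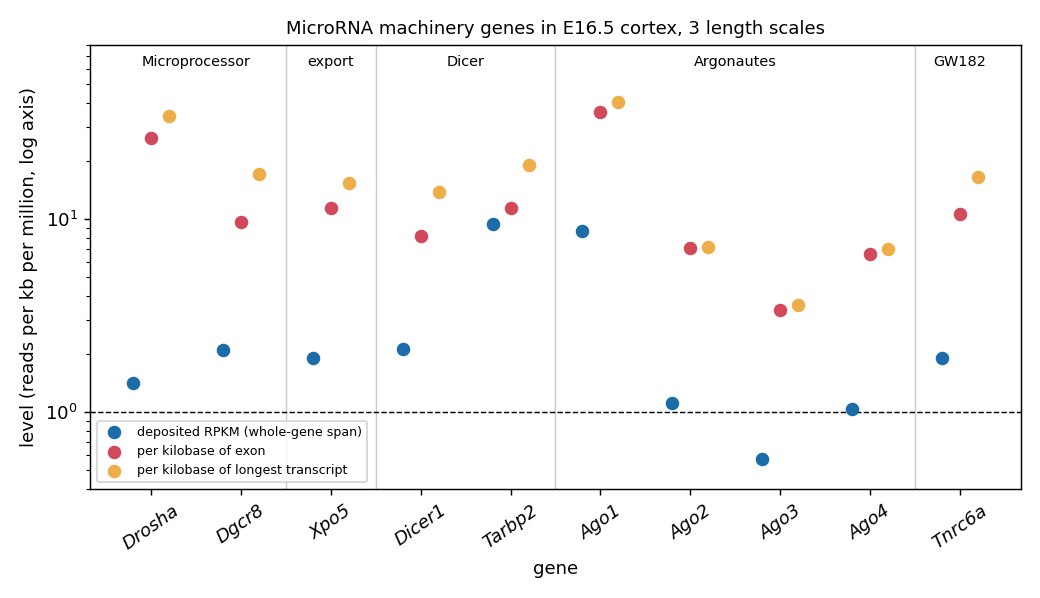
Level of each of the 10 genes (x axis, ordered by step of the pathway) on a log axis, as deposited RPKM (blue), per kilobase of exon (red) and per kilobase of the longest transcript (yellow). Each point is 1 authors' mean with no error bar, and the dashed line marks 1. The gap between blue and red is widest for Drosha, at 1.40 and 26.1, and narrowest for Tarbp2, at 9.42 and 11.4.

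Drosha, which encodes the nuclear RNase III enzyme, stood at 1.40 RPKM (ENSMUSG00000022191). An estimated 29123 reads lay behind it, with an exact Poisson interval of 1.39 to 1.42 RPKM. All such intervals are at 95% and cover counting error only, not the spread between embryos or libraries. Dgcr8, which encodes the subunit that binds the hairpin, stood at 2.10 RPKM (ENSMUSG00000022718), with an interval of 2.06 to 2.13 RPKM and 13881 reads. The ratio of Drosha to Dgcr8 was 0.670 as deposited and 2.72 per kilobase of exon. It was 1.98 per kilobase of the longest transcript and 2.10 in reads with no length, so Drosha was below Dgcr8 only on the deposited scale among these 4.

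The Dgcr8 transcript itself carries hairpins of the kind that the Microprocessor cuts, and the annotation places 2 microRNA genes within its exons. The Mir1306 hairpin of 79 bases lies entirely in coding sequence, and that of Gm24572, which holds miR-3618, lies in an exon outside it. They are shown because these hairpins lie in exons of a gene of the machinery. A further annotated microRNA gene, Gm47288, shares 72 bases with coding exons of Drosha on the same strand, and no value of it was used here. The hairpin is from RefSeq (GRCm38.p6, minus strand, chr16:18284239-18284317), with both mature arms in capitals, and the mature sequences have their seed, bases 2 to 8, in capitals.
Mir1306 hairpin: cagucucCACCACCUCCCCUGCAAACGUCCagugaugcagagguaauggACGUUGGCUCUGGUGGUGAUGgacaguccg
mmu-miR-1306-5p: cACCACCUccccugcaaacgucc
mmu-miR-1306-3p: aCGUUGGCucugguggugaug
mmu-miR-3618-5p: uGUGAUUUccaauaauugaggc
mmu-miR-3618-3p: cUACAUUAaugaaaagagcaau

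None of these 4 mature sequences shares its seed with another of them. Both microRNA genes were listed at 0 RPKM. Spread evenly over its exons, the reads of Dgcr8 would put 142 reads on the stretch of Mir1306 and 159 on that of Gm24572. How reads that overlap both genes were counted is not stated. The effect of this on the value of Dgcr8 was not tested. Its exons also share 825 bases (10.7%) with Trmt2a on the opposite strand, a transfer RNA methyltransferase gene at 8.85 RPKM. In RPM (reads divided by M reads of the library, with no length) Trmt2a stood at 53.9 and Dgcr8 at 74.0, and without a stated strand setting the reads of the shared stretch cannot be assigned. On the same strand the protein-coding gene Gm49776, of which no value was used here, shares 327 exon bases with Dgcr8 (4.25%), 323 of them coding, which would hold 590 of its reads if spread evenly.

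Xpo5, which encodes the export receptor for hairpin precursors, stood at 1.91 RPKM (ENSMUSG00000067150), with an interval of 1.87 to 1.94 RPKM and 14594 reads. Its level per kilobase of exon was 11.3, close to those of Tarbp2 (11.4) and Tnrc6a (10.6) on the spans used. With RefSeq spans Xpo5 stayed at 11.3, while Tarbp2 stood at 15.7 and Tnrc6a at 24.4. An intron of Xpo5 holds the microRNA gene Mir693, listed at 0.0529 RPKM, which amounts to an estimated 0.884 reads. It is shown for contrast with the exonic hairpins, with the seeds again in capitals.
mmu-miR-693-5p: cAGCCACAuccgaaaguuuuc
mmu-miR-693-3p: gCAGCUUUcagauguggcuguaa

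Dicer1, which encodes the cytoplasmic RNase III enzyme, stood at 2.12 RPKM (ENSMUSG00000041415), with an interval of 2.10 to 2.15 RPKM and 25571 reads. Its merged exons, 16.8 kb, were the longest of the 10, and its level per kilobase of exon was 8.13. Tarbp2, which encodes the double-stranded RNA-binding partner of DICER, stood at 9.42 RPKM (ENSMUSG00000023051), with an interval of 9.24 to 9.61 RPKM. With 9699 estimated reads on the span used it was second to last of the 10 in reads, although first by RPKM. The ratio of Dicer1 to Tarbp2 was 0.225 as deposited, 0.716 per kilobase of exon and 2.64 in reads with no length. The RefSeq span of Tarbp2, 7.60 kb, is longer than the one used, and with RefSeq spans the ratio per kilobase of exon was 0.517.

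The enzymes of the 2 cutting steps changed order with the scale. Drosha was 0.662 times Dicer1 as deposited, 3.21 times per kilobase of exon and 1.14 times in reads. Prkra, which encodes the other DICER partner PACT, stood at 2.16 RPKM, so that Tarbp2 was 4.36 times Prkra as deposited. By exon length Prkra was the higher one, at 19.3 against 11.4 for Tarbp2, a ratio of 0.589.

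Ago1 was the highest Argonaute gene on every scale used. It stood at 8.70 RPKM (ENSMUSG00000041530), with an interval of 8.63 to 8.77 RPKM and 54821 reads. This was the most of any of the 10 genes on the spans used. Reads are estimated from the span, and the RefSeq span of Tnrc6a is 164.2 kb against the 71.4 kb used. Places in reads thus rest on the spans. Ago2, the Argonaute whose protein cuts fully paired targets, stood at 1.11 RPKM (ENSMUSG00000036698), with an interval of 1.09 to 1.13 RPKM and 18574 reads. Ago4 stood at 1.04 RPKM (ENSMUSG00000042500), with an interval of 1.02 to 1.06 RPKM and 8569 reads. Ago3 stood at 0.569 RPKM (ENSMUSG00000028842), with an interval of 0.558 to 0.580 RPKM and 10447 reads.

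Ago1 held 76.2% of the summed Argonaute level as deposited, and 67.9% per kilobase of exon. Its share was 69.5% per kilobase of the longest transcript and 59.3% of the reads. Ago2 held 9.73% as deposited, 13.3% per kilobase of exon and 20.1% of the reads. Ago2 was 0.128 times Ago1 as deposited, 0.196 times per kilobase of exon and 0.339 times in reads, so that Ago1 exceeded the slicing Argonaute on each. Ago1 was 15.3-fold above Ago3 and 8.37-fold above Ago4 as deposited, while these ratios were 10.7 and 5.47 by exon length.

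**Figure D2:**
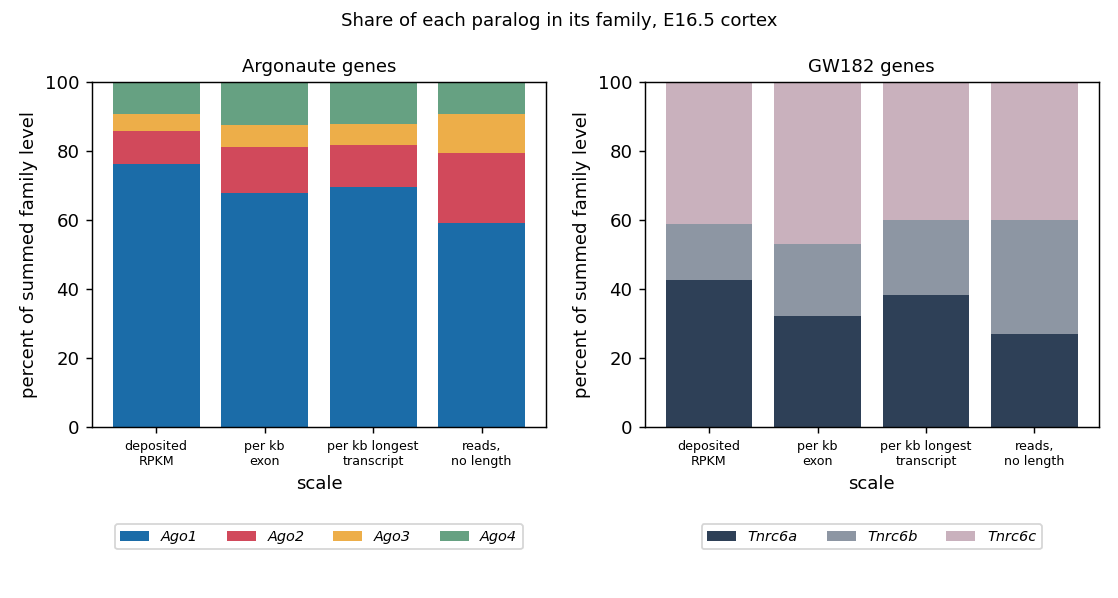
Stacked bars of each paralog's percent of its family's summed level (y axis) on 4 scales (x axis), for the 4 Argonaute genes (left) and the 3 GW182 genes (right). Ago1 makes up between 59.3% and 76.2% of the Argonaute level, while the leading GW182 gene is Tnrc6a as deposited and Tnrc6c on the other scales plotted. With RefSeq spans, which are not plotted, Tnrc6a was 1.56 times Tnrc6c per kilobase of exon.

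The 3 lower Argonautes were closer to each other. Ago2 was 1.95-fold above Ago3 as deposited, and 2.10-fold above it by exon length. Ago2 and Ago4 differed by 1.07-fold on both of these scales, and with RefSeq spans their ratio per kilobase of exon was 0.99991, so their order is not settled. Ago3 was 0.547 times Ago4 as deposited and 1.22 times in reads, with whole-gene spans of 97.9 kb for Ago3 and 43.9 kb for Ago4. By exon length, 16.6 kb for Ago3 and 6.95 kb for Ago4, the ratio was 0.511. Sequence shared between the Argonautes was measured in their annotated transcripts. Of the distinct runs of 36 bases there, 1.88% of those of Ago1, 0.129% of Ago2, 0.815% of Ago3 and 0.0434% of Ago4 also occurred in another of the 10 genes. Ago2 shared 4.57% with other genes in all, mostly with the processed pseudogene Gm6088, listed at 0.00203 RPKM. Ago1, Ago3 and Ago4 are neighbours on chromosome 4 in the order Ago3, Ago1, Ago4 (RefSeq, GRCm38.p6), and Ago2 lies on chromosome 15. The highest and the lowest Argonaute by RPKM are thus next to each other.

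Exons of Ago2 share 219 bases (1.56%) with Chrac1 on the opposite strand, a chromatin accessibility complex gene at 1.60 RPKM. In RPM, Chrac1 stood at 11.4 and Ago2 at 99.0. Tarbp2 had the largest share of runs found in another gene, 15.9%, through the processed pseudogene Gm18584. The shares of the remaining genes were 5.91% for Dgcr8 (293 of its 462 shared runs with Gm49776), 1.22% for Drosha, 1.12% for Dicer1, 0.857% for Tnrc6a and 0.767% for Ago4 with any gene, and no run of Xpo5 was shared.

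Tnrc6a, which encodes a GW182 scaffold that links Argonautes to deadenylases, stood at 1.89 RPKM (ENSMUSG00000052707), with an interval of 1.87 to 1.91 RPKM and 25335 reads. Its paralog Tnrc6c stood at 1.83 and Tnrc6b at 0.716 RPKM. Tnrc6a and Tnrc6c were within 1.03-fold of each other as deposited, and Tnrc6a was 0.684 times Tnrc6c per kilobase of exon. Tnrc6a was 2.64 times Tnrc6b as deposited, 1.53 times per kilobase of exon and 0.821 times in reads. No single GW182 gene led on all scales, unlike the Argonautes. The RefSeq span of Tnrc6a is 164.2 kb, against the 71.4 kb used, and with it the level per kilobase of exon would be 24.4 in place of 10.6. With RefSeq spans for all, Tnrc6a was 1.56 times Tnrc6c and 3.52 times Tnrc6b per kilobase of exon, so its order with Tnrc6c turns with the span.

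In the order by RPKM, counting intervals of neighbours overlapped for Dicer1 and Dgcr8 (2.12 and 2.10) and for Xpo5 and Tnrc6a (1.91 and 1.89). Per kilobase of exon, on the spans used, they overlapped for Tarbp2 and Xpo5 (11.36 and 11.34). The counting intervals of other neighbours did not overlap, which does not show that these genes would differ between embryos. Of 13 pairs of genes compared, 4 kept their order as deposited, per kilobase of exon with either span, per kilobase of the longest transcript and in reads. All 4 were Argonaute pairs, with Ago1 above Ago2, Ago3 and Ago4, and Ago2 above Ago3.

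**Figure D3:**
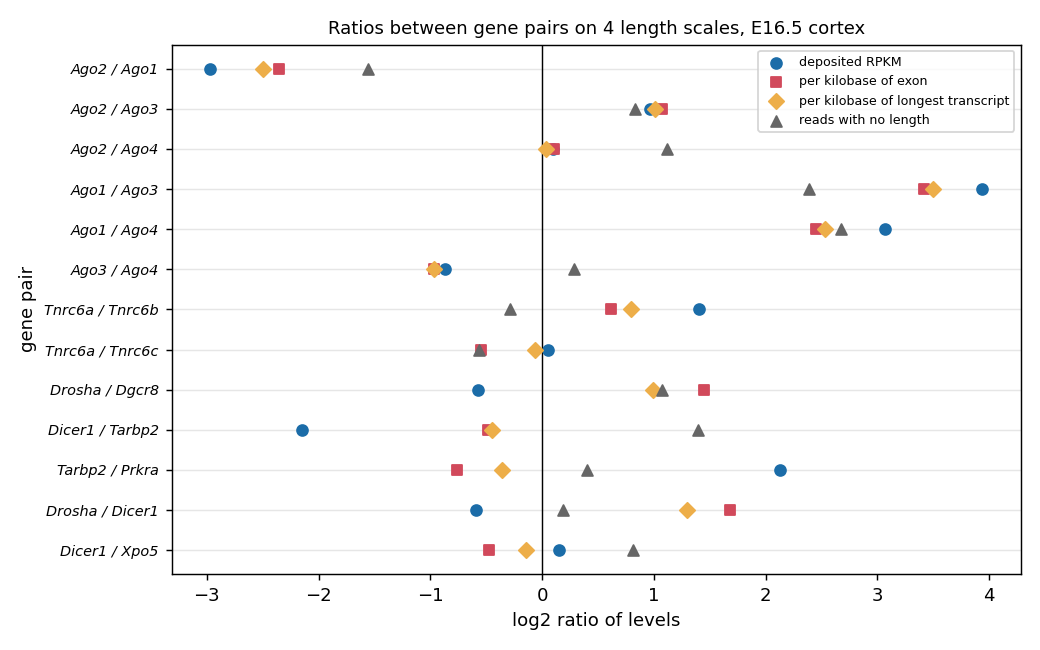
The log2 ratio (x axis) of 13 gene pairs (y axis, first gene over second) as deposited RPKM (circles), per kilobase of exon (squares), per kilobase of the longest transcript (diamonds) and in reads with no length (triangles). Pairs with Ago1 stay on one side of 0, while Drosha against Dgcr8 and Drosha against Dicer1 lie left of 0 as deposited and right of 0 on the other scales.

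Set among all protein-coding genes, the machinery was not at the top. By deposited RPKM, Tarbp2 lay above 95.1% and Ago1 above 94.6% of protein-coding genes. Dicer1, Dgcr8, Xpo5 and Tnrc6a lay above 77.9% to 79.7%, Drosha above 73.4%, Ago2 above 70.0%, Ago4 above 69.0% and Ago3 above 60.7%. By exon length Ago1 lay above 95.5% and Drosha above 93.1%, while Tarbp2 was above 81.4% and Ago3 above 59.3%.

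**Figure D4:**
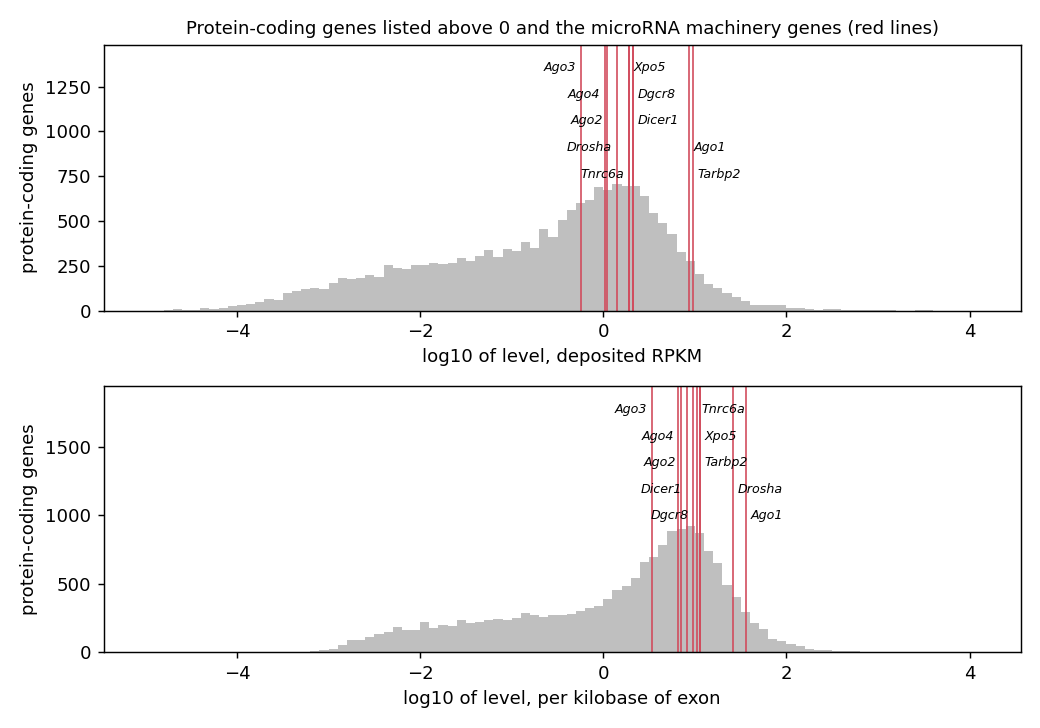
Histograms of protein-coding genes listed above 0 (y axis, number of genes) by the log10 of their level as deposited RPKM (top) and per kilobase of exon (bottom), with a red line for each of the 10 genes. Most lines lie near the main peak, with Ago1 and Tarbp2 to its right in the top panel and Ago1 and Drosha in the bottom one.

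Promoter sequence was compared as a property unrelated to the choice of the genes. RefSeq windows of 300 bases (GRCm38.p6, 250 before the start and 50 after it) were available for 9 of the 10 genes, not for Ago2. The letters CG were counted on 1 strand, which gives the same count on the other, and the fullest window of each gene was taken. More windows can raise that maximum, and their number was not matched between the sets of genes. The sets compared with were also not limited to protein-coding genes, as the 10 genes all are. The 9 genes held 11 to 54 CG, with a median of 38, against a median of 8 over 27025 genes and 23 over 5162 genes at 1 RPKM or more. Ago4 held the most, 54, a number reached by 0.411% of all genes and 0.9105% of those at 1 RPKM or more, and Dicer1 held 49. Tnrc6a held 11, reached by 43.8% of all genes and 91.4% of the genes at 1 RPKM or more. Tarbp2 held 21, reached by 27.0% of all genes and 61.4% of those at 1 RPKM or more.

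Other genes of the pathway ranged far more widely than the 10. Cofactors of hairpin cutting and export were the list with the highest median. All 7 reached 1 RPKM, against 31.6% of protein-coding genes, with a median of 35.8 RPKM and 71.4 per kilobase of exon. The RNA helicase gene Ddx5, whose protein joins the Microprocessor, stood at 145 RPKM, Hnrnpa1, which encodes an RNA-binding protein that aids the cutting of certain hairpins, at 132 and Ran, the GTPase that exportins need, at 44.4 RPKM. The lowest as deposited was Khsrp at 11.1 RPKM, above each of the 10 genes on that scale. Per kilobase of exon Khsrp, at 27.0, lay below Ago1. The lowest by exon length was Srrt at 25.7, below both Ago1 and Drosha. Most of these proteins also serve in splicing or transport at large, and sequence that Hnrnpa1 and Ran share with other genes was not measured here.

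Genes that act on let-7 precursors were split. LIN28 proteins bind these precursors and block their processing, and terminal uridylyltransferases then tag them for decay. Lin28a stood at 0.00132 and Lin28b at 0.0611 RPKM, and Trim71, a let-7 target gene of early embryos, at 0.00201 RPKM. The uridylyltransferase genes Tut4 and Tut7 stood at 1.13 and 1.32 RPKM and the exonuclease gene Dis3l2 at 0.0913 RPKM. Scaled by exon length, Tut4 reached 13.0, Tut7 4.63 and Dis3l2 3.55, against 0.739 for Lin28b, 0.0123 for Trim71 and 0.00512 for Lin28a. Of the 6 genes 2 (33.3%) reached 1 RPKM, and 3 (50%) did so per kilobase of exon. Both shares are near those of all protein-coding genes, 31.6% and 54.0%.

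Argonaute loading and partner genes had a median of 12.1 RPKM. Of these 9 genes 8 reached 1 RPKM, against 31.6% of protein-coding genes, which is also the background for the 2 lists that follow. The chaperone genes Hsp90ab1 (300.4), Hspa8 (231) and Hsp90aa1 (39.9), whose products open Argonautes for loading among many other clients, led the list, and the helicase gene Mov10 was lowest at 0.193 RPKM. Downstream of GW182, 10 of 13 deadenylation genes reached 1 RPKM, with a median of 2.89 RPKM. Pabpc1, which encodes the poly(A)-binding protein, stood at 19.1, the CCR4-NOT nuclease genes Cnot7 and Cnot8 at 7.31 and 5.45, and Pan3 at 0.371 RPKM. Of the genes for translation block and decapping 7 of 10 reached 1 RPKM, with a median of 1.45 RPKM, from Ddx6 (10.1), Edc4 (6.32) and Eif4enif1 (1.64) down to the exonuclease gene Xrn1 at 0.326 RPKM. By exon length all genes of these last 2 lists reached 1, against 54.0% of protein-coding genes. The medians of the lists on that scale were 12.2 for deadenylation and 9.26 for translation block and decapping, beside 10.1 for the 10 genes.

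The PIWI genes, relatives of the Argonautes that carry guides in the germline, were near 0: Piwil1 stood at 0.0179, Piwil2 at 0.00328 and Piwil4 at 0.000564 RPKM. Their highest level per kilobase of exon, 0.217, was far below the 3.36 of Ago3, the lowest Argonaute. Of the 11 microRNA host genes listed, 4 could be matched by ID. Mir17hg, which carries the miR-17 to miR-92 cluster of proliferating cells, stood at 4.75 and Mir22hg at 0.727 RPKM. Mir142hg, a host of blood cells, stood at 0.0135 and Mir99ahg at 0.00101 RPKM. Per kilobase of exon Mir142hg stood at 0.0848 and Mir99ahg at 0.0380. In RPM Mir142hg stood at 0.0228, near the 0.0160 RPM of 3 reads, and Mir99ahg at 0.543, so their order turned with the scale. Of 1110 annotated microRNA genes 344 (31.0%) were listed above 0 and 68 reached 1 RPKM. Over all 37991 gene IDs these numbers were 24426 and 7129. Entries as short as those of microRNA genes do not measure mature microRNAs.

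**Figure D5:**
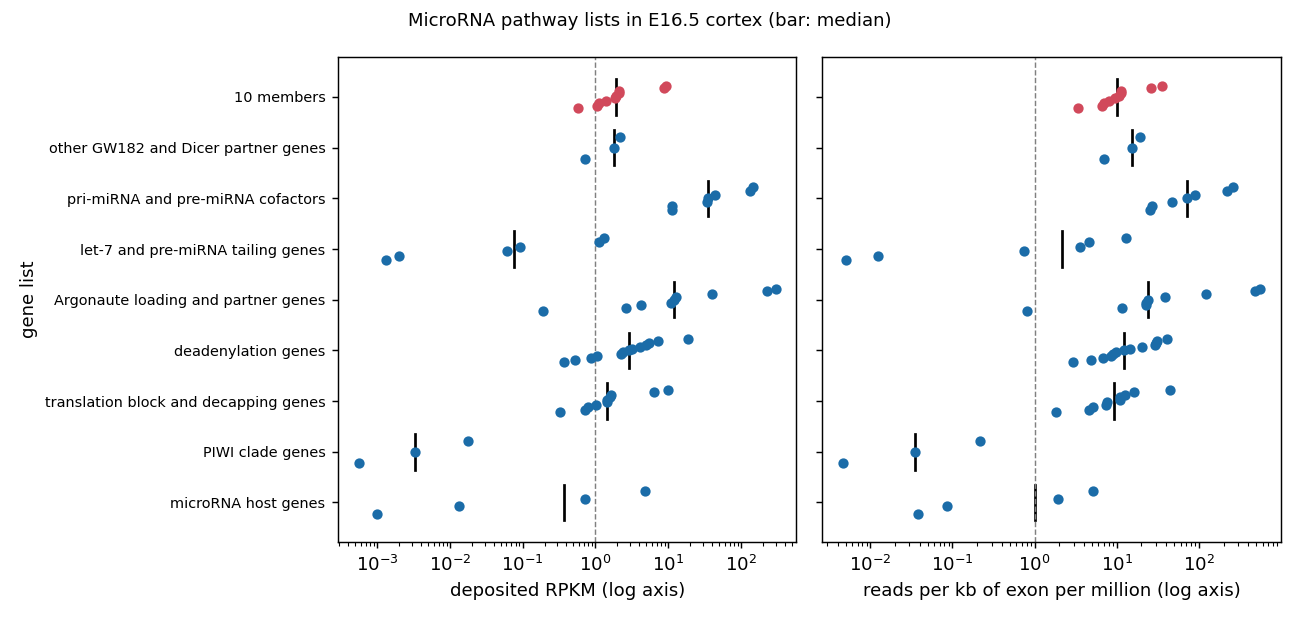
Each gene (point) of the 10 members (red) and of 8 other lists (blue) by deposited RPKM (left) and per kilobase of exon (right), on log axes, with a black bar at the list's median and a dashed line at 1. The 10 members lie between 0.569 and 9.42 RPKM, with a median of 1.90 RPKM. The other GW182 and Dicer partner genes lie between 0.716 and 2.16 RPKM. The let-7 list reaches down to 0.00132 RPKM and the loading list up to 300.4 RPKM.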

How the data were processed

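The deposited values are RPKM, given by the authors as 1 mean column for embryonic cortex, per the file headers, to which the labels assign 3 libraries. Per the labels' protocols, Trizol-extracted RNA was made into TruSeq libraries. Per the submitters' processing notes, the tools were DESeq 1.16.0, HTSeq 0.6.0, Cuffdiff 2.0.2, TopHat2 2.0.9 and Bowtie2 2.1.0, on mm9 (NCBIM37), with no role given. Symbols and lengths came from GENCODE M21, made on a later build, for 32938 of 37991 gene IDs, so the only coordinates given are those of the Mir1306 hairpin in RefSeq. Depth was taken from the 3 fullest peaks of low values between 40 and 100.0 M reads (peaks within 0.5%), a step tested on simulated data. Reads of a gene are RPKM times span times the summed 188 M reads. The 3 reads taken as a floor are 0.0160 RPM (reads with no length). Python 3.11.15 with scipy 1.17.1 was used. The genes were chosen by name and the rule uses no level, but they, the lists and the pairs were chosen with earlier results of these data known. The text names all 10 genes and, of each other list, all genes where 6 or fewer were measured, otherwise the 3 highest and the lowest detected. Trmt2a, Chrac1, Gm49776, Pecam1, Srrt and the microRNA genes and pseudogenes were named after their values were seen. The host genes Mir124a-1hg, Mir124-2hg, Mir9-3hg, Mir100hg, Mir155hg, Mirg and Rian, were not matched. The alternatives were other lengths, spans, thresholds, pseudocounts, backgrounds and depths. Ratios per longest transcript and with RefSeq spans were added after seeing the data. The sources used here do not say whether the libraries came from separate embryos.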

Additional observations from a re-analysis of the deposited data

How the results depend on the processing

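Of the 10 genes, 9 reached the threshold of 1 RPKM, 2 reached 5 RPKM and 0 reached 10 RPKM. The share of all genes at 5 or 10 RPKM is not given here, so the last 2 counts have no background. Their median log2 level was 0.998 with a pseudocount of 0.1, 1.53 with 1, 0.93 with 0.01 and 3.35 per kilobase of exon. Of 13 pair ratios, 9 crossed 1 under at least 1 alternative, 21 of 52 values in all. The deposited, exon, transcript and no-length scales differ only in the length by which the same estimated reads are divided. RefSeq spans instead change the estimated reads and keep the exon length. Per kilobase of exon, the ratio turned for Tnrc6a to Tnrc6c (0.684), Drosha to Dgcr8 (2.72), Tarbp2 to Prkra (0.589), Drosha to Dicer1 (3.21) and Dicer1 to Xpo5 (0.718). In reads with no length it turned for Ago3 to Ago4 (1.22), Tnrc6a to Tnrc6b (0.821), Tnrc6a to Tnrc6c (0.677), Drosha to Dgcr8 (2.10), Dicer1 to Tarbp2 (2.64) and Drosha to Dicer1 (1.14). Per kilobase of the longest transcript it turned for Tnrc6a to Tnrc6c (0.958), Drosha to Dgcr8 (1.98), Tarbp2 to Prkra (0.780), Drosha to Dicer1 (2.45) and Dicer1 to Xpo5 (0.904). With RefSeq spans, per kilobase of exon, it turned for Ago2 to Ago4 (0.99991), Drosha to Dgcr8 (2.72), Tarbp2 to Prkra (0.379), Drosha to Dicer1 (3.21) and Dicer1 to Xpo5 (0.718). No paired analysis was possible because only 1 mean column is used, and for the same reason no library could be left out.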
